A study of Mus musculus with 9 samples.

Results

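Mouse liver tumors that carry an added Snail construct on top of the S7HP combination (S7HP+Snail, tumors 13, 14 and 15) were compared with S7HP tumors without it (tumors 9, 11 and 12). These 6 tumors were chosen by their labels alone, out of 9 tumors in the series. All came from C57BL/6 mice aged 11 weeks and are labelled as liver tumor. The third group, LHP (tumors 2, 3 and 6), entered the statistical model and is given as a description only. The labels do not spell out the letters, but the column names in the files tie S7HP to Smad7 and LHP to Luc, so both groups compared share the Smad7 construct and whatever HP stands for. The labels state no promoter, delivery route or animal of origin for any tumor, so the p-values rest on sample-to-sample spread, which may be technical in part. Of 24421 gene symbols measured by 3′ RNA sequencing, 14215 reached a log2 level of 4 in at least 3 of the 9 libraries and were tested.

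Snail, encoded by Snai1, is a zinc-finger transcription factor that binds short DNA motifs called E-boxes and recruits repressor complexes. It is best known for switching off cell-cell adhesion genes during the epithelial to mesenchymal transition (EMT), in which epithelial cells lose their junctions and polarity and take on matrix-producing, motile traits. Smad7 is an inhibitor of TGF-β receptor signaling, and TGF-β is a well known inducer of Snail, including in hepatocytes. The series concerns the TGF-β, Smad and Snail pathway in tumor growth.

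Levels below are log2(normalized count + 1), and differences are S7HP+Snail minus S7HP on that scale, which understates changes of genes near 0. Errors of differences are standard errors (SE) from limma. Genes whose Benjamini-Hochberg adjusted p, over all 14215 genes, was below 0.05 are said to be called, to rise or to fall. The hepatocyte genes Alb, Ttr and Apoa1 were abundant in all 6 tumors, with a lowest log2 level of 11.36 (Ttr, tumor 15). The 3 S7HP tumors correlated with each other at 0.923 to 0.936 across genes, and the 3 S7HP+Snail tumors at 0.864 to 0.900. S7HP+Snail tumor 14 stood apart from tumors 13 and 15, at 107.2 on the first principal component of the 6 tumors against 35 and 32.8, while S7HP tumors lay between -66.3 and -46.2. The largest log2 level was the same in every library because the deposited values were equalized across libraries, and relative depths estimated from the lowest values ran from 0.572 to 1.11 in S7HP and from 0.936 to 2.01 in S7HP+Snail tumors.

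Snai1 itself (GRCm38 chromosome 2, 167538195 to 167542814) was at 6.17, 6.34 and 6.92 in S7HP tumors 9, 11 and 12 and at 8.53, 7.31 and 8.47 in S7HP+Snail tumors 13, 14 and 15. All 3 Snail tumors lay above all 3 S7HP tumors, with tumor 14 the lowest of them. The difference of 1.63 ± 0.43 (SE) did not pass the test (limma adjusted p = 0.0850). Without tumor 14 it was 2.02 and passed (limma adjusted p = 0.0374). Reads here come from the 3′ end of transcripts, and whether the added construct shares that end with mouse Snai1 is not stated, so these levels are no check of the labels. LHP tumors had Snai1 at 9.93, 11.16 and 10.99. Smad7, Hras and Trp53 differed by 0.84 ± 0.38, -0.77 ± 0.37 and -0.73 ± 0.36 (SE), and none of the 3 was called (limma adjusted p = 0.284, 0.318 and 0.332).

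With Snail added, named genes that rose include the matrix genes Serpinh1 and Tgfbi, the Wnt ligand Wnt5a, connexin 43 (Gja1) and the nuclear receptor Nr2f1. Those that fell include the junction genes Pkp2 and Ocln, the polarity gene Crb3, the fatty acid carrier Fabp5 and the apolipoprotein Apoc2. Of the 14215 genes, 327 were called (2.30%), 143 higher (1.01%) and 184 lower (1.29%). The change exceeded 4-fold in 211. In each of the 327 genes the 3 tumors of one group lay above the 3 of the other, as they also did in 9.53% (higher) and 11.0% (lower) of all genes tested. When each of the 9 libraries was left out in turn, 57 genes were called in all 9 fits, 36 higher and 21 lower. The counts leaned most on the S7HP side: without S7HP tumor 11 only 36 genes were called higher and 27 lower, and without tumor 12 the counts were 57 and 30. Without S7HP tumor 9 they were 78 and 58. With the 6 tumors alone in the model 50 were called higher and 70 lower. At an unadjusted limma p under 0.05, 1212 of the 14215 genes were higher and 1321 lower. These numbers over all genes are the ones to set beside each count of list members below.

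**Figure D1:**
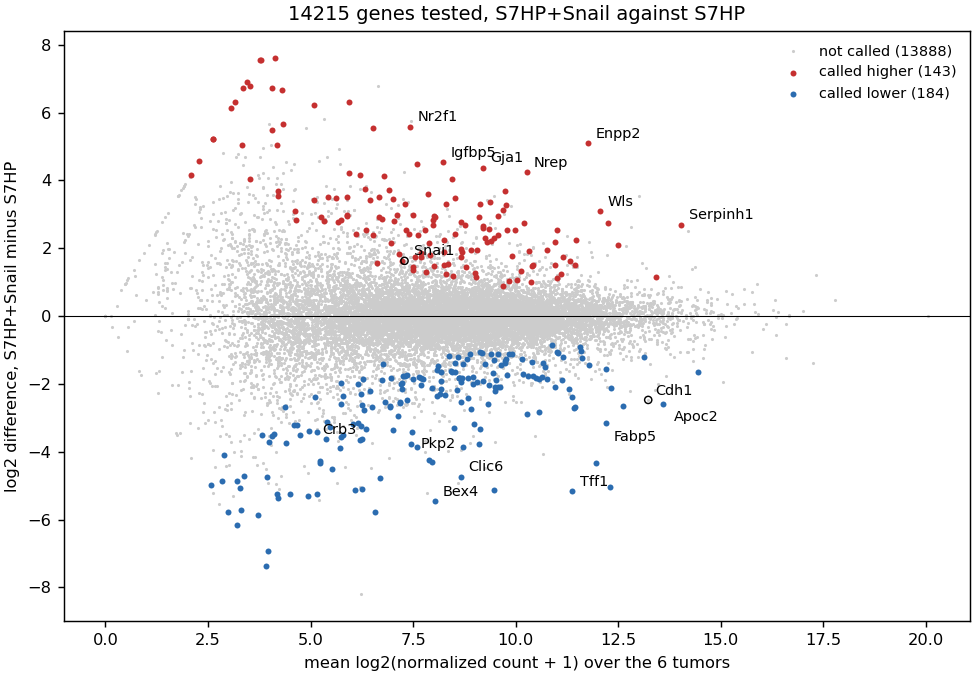
Log2 difference between S7HP+Snail and S7HP (vertical axis) against the mean log2(normalized count + 1) over the 6 tumors (horizontal axis) for each gene tested. Red points are the 143 genes called higher, blue points the 184 called lower, and open circles mark Snai1 and Cdh1, which were not called.

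Several genes of epithelial junctions and polarity fell with Snail. Across the lists for desmosomes, tight junctions and adherens junctions with polarity, 8 of 53 tested members were called lower and 0 higher, against 1.29% lower among all genes. They were Pkp2, Ppl, Ocln, Lsr, Cgn, Crb3, Pard6b and Llgl2. Pkp2, plakophilin 2 (GRCm38 chromosome 16, 16213318 to 16272712), is a plaque protein that anchors desmosomal cadherins to keratin. Its log2 level was 9.43, 9.16 and 8.93 in S7HP tumors 9, 11 and 12 and 6.25, 5.47 and 5.55 in S7HP+Snail tumors 13, 14 and 15. The groups were far apart, the difference was -3.41 ± 0.30 (limma adjusted p = 0.00277), and the call was kept in every alternative. The LHP tumors, which lacked the added construct, had Pkp2 at 8.19, 7.79 and 7.76. Among the other desmosome genes Ppl, periplakin, which ties the plaque to intermediate filaments, fell by 2.15 ± 0.44. The call of Ppl rested on most libraries: leaving out LHP tumor 3 or 6, a single S7HP tumor, or either of S7HP+Snail tumors 13 and 14 ended it (limma adjusted p up to 0.118). Desmoplakin, Dsp, the desmosome's keratin linker, differed by only -0.07 ± 0.54 and overlapped between the groups. Of 10 desmosome genes tested these 2 were called, and the median difference was -0.19, beside -0.02 for all genes. That median was 0.07 without S7HP+Snail tumor 14 and -0.80 without tumor 13. The call of Ppl was also lost without the filter and without trend or robust variances (limma adjusted p up to 0.0544).

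Tight junctions seal the space between epithelial cells, and occludin, Ocln, is one of their membrane proteins. Ocln was at 8.02, 7.31 and 7.90 in S7HP tumors and at 5.09, 4.16 and 4.49 in S7HP+Snail tumors, a difference of -3.16 ± 0.54 (limma adjusted p = 0.0204). Cingulin, Cgn, a plaque protein that links the tight junction to the cytoskeleton, was at 9.95, 9.95 and 10.54 against 8.49, 6.15 and 5.91, a difference of -3.30 ± 0.59 (limma adjusted p = 0.0238). Tumor 13 kept the highest Cgn of the Snail tumors but still lay below every S7HP tumor. Lsr, which organizes the contacts where 3 cells meet, was at 13.62, 13.57 and 14.02 against 12.66, 12.28 and 12.66, a smaller difference of -1.20 ± 0.21 (limma adjusted p = 0.0231). The calls of Ocln, Cgn and Lsr were each lost without S7HP tumor 9, 11 or 12, and that of Lsr also without S7HP+Snail tumor 14, with limma adjusted p up to 0.0887. With the 6 compared tumors alone in the model Cgn and Lsr were not called either (limma adjusted p = 0.0861 and 0.0858). Of 21 tight junction genes tested, 3 were called lower and 0 higher, and 9 lay below S7HP with no overlap, beside 11.0% of all genes. A negative difference was found in 16 of the 21, and the median difference was -1.20. The claudins, which form the seal itself, mostly had negative differences, and none of those tested was called. Cldn4 was at 6.00, 6.23 and 7.65 against 5.77, 0.00 and 0.00 (-4.70 ± 1.40, limma adjusted p = 0.115). Cldn2, Cldn3, Cldn6, Cldn7, Cldn12 and Cldn14 were also lower on average, while Cldn1 differed by 0.31 ± 0.46. Cldn4 was chosen after its values were seen. The scaffold Tjp1, also chosen so, was at 11.34, 10.98 and 11.52 against 11.56, 13.08 and 11.93 and was not called.

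The apical polarity genes Crb3 and Pard6b fell. Crb3, the epithelial Crumbs protein that marks the apical membrane, was at 7.90, 7.72 and 8.41 in S7HP and at 5.97, 3.97 and 4.11 in S7HP+Snail tumors. The groups did not overlap, and the difference was -3.32 ± 0.57 (limma adjusted p = 0.0211). Pard6b, a scaffold of the Par complex at the same membrane, was at 6.90, 6.71 and 8.59 against 4.49, 2.81 and 1.96, a difference of -4.32 ± 0.84 (limma adjusted p = 0.0329). Llgl2, a basolateral polarity protein, fell by 1.82 ± 0.38 (limma adjusted p = 0.0411). These calls were less firm than that of Pkp2: Crb3 lost its call without any 1 S7HP tumor (limma adjusted p up to 0.0806). Pard6b lost it without LHP tumor 3, a single S7HP tumor, or either of S7HP+Snail tumors 14 and 15 (up to 0.108), and Llgl2 in 8 of the 9 fits with a library left out (up to 0.127), all but that without S7HP+Snail tumor 13. With the 6 tumors alone in the model, none of the 3 was called (limma adjusted p = 0.0593, 0.0703 and 0.0861 for Crb3, Pard6b and Llgl2). Llgl2 was also lost with library weights, without the filter and without trend or robust variances (up to 0.0607).

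E-cadherin, Cdh1, the adherens junction protein that Snail is best known to repress, did not pass the test. Its log2 level was 14.26, 14.18 and 14.95 in S7HP tumors and 14.17, 10.54 and 11.28 with Snail. Tumors 14 and 15 were far below every S7HP tumor, whereas tumor 13 was level with the lowest of them. The difference over the 3 tumors was -2.47 ± 0.77 (limma adjusted p = 0.130), and without tumor 13 it was -3.56 (limma adjusted p = 0.00574). The keratin Krt18 was at 13.73, 13.92 and 14.00 against 12.27, 10.31 and 12.42, a difference of -2.22 ± 0.54 that did not pass (limma adjusted p = 0.0752) and passed without tumor 15 (-2.60, limma adjusted p = 0.0469). Its partner Krt8 was lower without overlap but not called (-1.34 ± 0.64). Of 7 keratins and of 19 epithelial regulators such as splicing and Grainyhead factors, limma called 0 in either direction, with 2 keratins and 3 regulators lower at an unadjusted p under 0.05. Their median differences were -1.34 and -0.56. Without S7HP+Snail tumor 14 these medians were -0.39 and -0.28, and without tumor 13 that of the regulators was -1.46. The mean keratin level was 6.45 in tumor 14 against 9.43 and 9.88 in tumors 13 and 15.

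**Figure D2:**
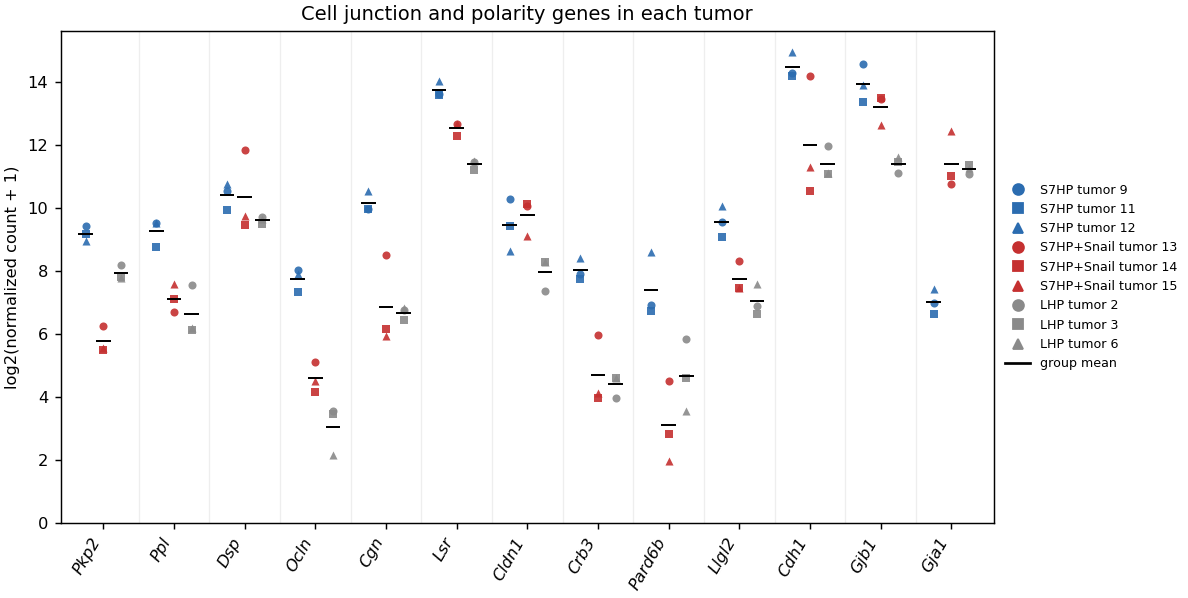
Log2(normalized count + 1) of junction and polarity genes in each S7HP (blue), S7HP+Snail (red) and LHP (grey) tumor, with symbols for single tumors and black bars for group means. Pkp2, Ocln, Crb3 and Lsr separate the 3 red from the 3 blue points, Gja1 does so in the other direction, and for Cdh1 the S7HP+Snail tumor 13 lies with the S7HP tumors.

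Snail's zinc fingers recognize the E-box CAGGTG, which reads CACCTG on the other strand, so promoters of 4 of the 8 fallen junction and polarity genes, those whose window held the motif, are shown here with it in capitals. No window was used for Pkp2, Ppl and Llgl2. Sequences are from RefSeq on GRCm38.p6, 5′ to 3′ on the gene's strand. For Lsr and Pard6b the 250 bases before the annotated start are printed, for Crb3 the first 200 of them, and for Ocln 2 stretches of 30 bases.
Crb3 (chr17:57061951-57062150, plus strand): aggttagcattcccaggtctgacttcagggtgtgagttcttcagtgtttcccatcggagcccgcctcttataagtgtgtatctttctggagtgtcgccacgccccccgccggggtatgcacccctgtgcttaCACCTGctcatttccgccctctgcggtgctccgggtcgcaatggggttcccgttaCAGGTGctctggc
Lsr (chr7:30973470-30973719, minus strand): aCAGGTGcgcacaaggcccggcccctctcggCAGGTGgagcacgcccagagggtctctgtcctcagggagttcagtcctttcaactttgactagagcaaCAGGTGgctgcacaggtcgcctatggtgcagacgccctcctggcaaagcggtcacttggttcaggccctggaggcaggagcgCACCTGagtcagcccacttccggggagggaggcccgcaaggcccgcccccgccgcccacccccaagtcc
Pard6b (chr2:168080754-168081003, plus strand): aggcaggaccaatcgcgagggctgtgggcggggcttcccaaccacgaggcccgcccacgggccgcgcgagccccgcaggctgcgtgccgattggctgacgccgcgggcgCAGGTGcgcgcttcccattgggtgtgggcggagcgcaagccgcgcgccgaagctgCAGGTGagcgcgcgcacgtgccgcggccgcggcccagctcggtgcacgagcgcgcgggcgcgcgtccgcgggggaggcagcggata
Ocln (chr13:100552694-100552723, minus strand): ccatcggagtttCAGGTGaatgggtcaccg
Ocln (chr13:100552549-100552578, minus strand): ctaggggctcggCAGGTGggtcccagcgca
The motif occurred 4 times in the Lsr stretch, with first bases at -249, -219, -151 and -69 relative to the start. In Crb3 it began at -118 and -63, with further copies at -7 and at 26 bases past the start outside the stretch. Pard6b had it at -141 and -86. The window of Cgn held 0 copies. These matches are a description of letters and do not show binding.

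Across the genome table, 22.6% of 27025 gene symbols had CAGGTG, on either strand, in a window around an annotated start. Windows ran from 250 bases before the start to 50 bases after it. For a gene with several annotated starts, near or far apart, the window with the most copies counted. Genes with more starts thus had more chances to hold the motif. Of the genes called lower, 45.1% had it (55 of 122 with a window), beside 21.2% of the genes called higher (22 of 104) and 20.8% of the tested genes not called (2173 of 10472). At least 2 copies were present in 9.8% of the genes called lower, 1.9% of those called higher and 3.0% of those not called. Genes with more copies had lower median differences, from 0.01 with 0 copies (8448 genes) through -0.12 with 1 (1924 genes) and -0.35 with 2 (287 genes) to -0.38 with at least 3 (39 genes). The share called lower was 0.79%, 2.23%, 2.79% and 10.26% over the same classes, while the share called higher was 0.97%, 1.04%, 0.70% and 0.00%. Only 4 genes make up the last share of genes called lower.

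Other E-boxes give a comparison. CAGCTG was found in 17.2% of the genes called lower and 18% of those not called, and CACGTG in 11.5% and 11.4%. CATATG was found in 4.9% and 2.2%. Median GC content was 60.4% in the windows of genes called lower, 62.3% for those called higher and 60.3% for those not called. Of the genes called lower in all 9 fits with a library left out, 7 of 12 with a window had CAGGTG (58.3%), beside 6 of 31 of those called higher (19.4%). Other fallen genes with the motif include the hepatic regulator Foxa3 (at -173), the steroid-metabolizing enzyme gene Cyp3a13 (-246), the lipid transporter Abca3 (-18), the nucleotide kinase Nme3 (-141) and the growth factor Tgfa (-197). Among risen genes, Sulf2 (-29) and Col16a1 (-181) also had it. No test was made of these shares.

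**Figure D3:**
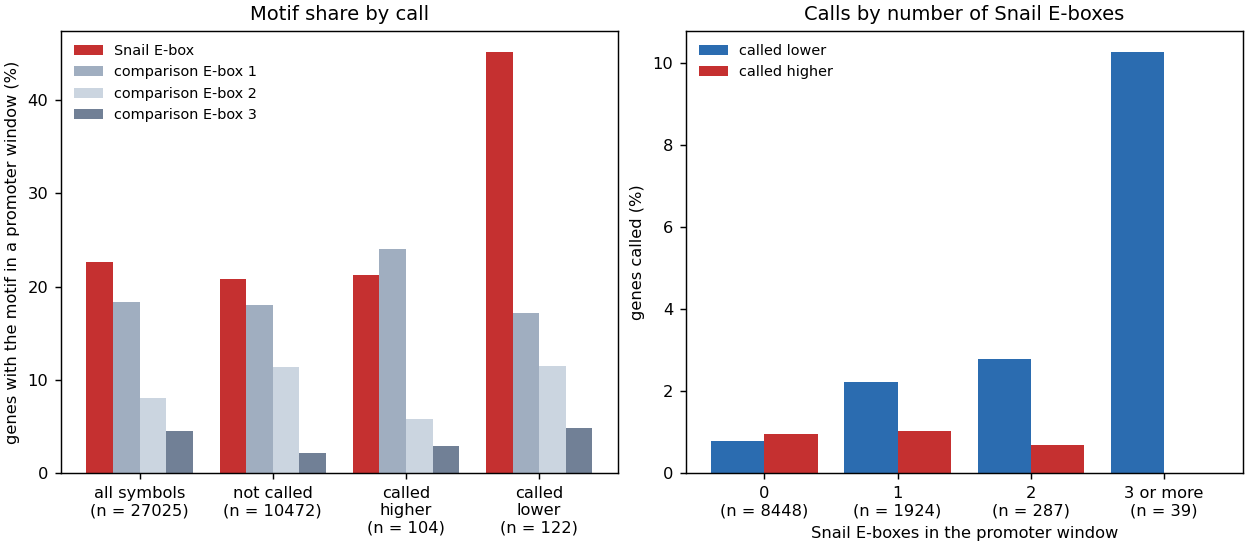
Left, percent of genes with a promoter window that holds the Snail E-box CAGGTG (red) or the comparison E-boxes 1 to 3, which are CAGCTG, then CACGTG and then CATATG (greys), for all symbols and by call. Right, percent of tested genes called lower (blue) or higher (red) by number of Snail E-boxes. The red bar stands at 45.1% for genes called lower and near 21% elsewhere, and the blue bars grow to the right.

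Connexin 43, Gja1, the gap junction channel of fibroblasts and many mesenchymal cells, rose. Gja1 (GRCm38 chromosome 10, 56377330 to 56402513) was at 6.98, 6.63 and 7.43 in S7HP tumors and at 10.76, 11.00 and 12.42 in S7HP+Snail tumors. All Snail tumors were at least 3 units above every S7HP tumor, the difference was 4.38 ± 0.41 (limma adjusted p = 0.00277), and the call was kept in every alternative. LHP tumors were at 11.06, 11.34 and 11.25. Connexin 32, Gjb1, the main connexin of hepatocytes, was at 14.57, 13.36 and 13.88 against 13.46, 13.47 and 12.63 and overlapped between the groups (-0.75 ± 0.35, limma adjusted p = 0.297). Of 10 gap junction genes tested, Gja1 was the only one called, beside 1.01% called higher among all genes.

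Among EMT transcription factors, 2 of 19 tested were called higher and 0 lower, against 1.01% higher among all genes, and 16 of the 19 had a positive difference (median 1.49, and 0.91 without S7HP+Snail tumor 14). Tcf4, an E-box binding helix-loop-helix factor also called E2-2, was at 11.13, 10.47 and 10.99 in S7HP and at 13.08, 14.81 and 12.93 in S7HP+Snail tumors. Tumor 14 was the highest, the groups did not overlap, and Tcf4 rose by 2.74 ± 0.44 (limma adjusted p = 0.0178). That call was lost without S7HP tumor 11 or 12 (limma adjusted p up to 0.0831) and with the 6 tumors alone in the model (0.0703). The T-box repressor Tbx2 rose by 2.83 ± 0.62 (limma adjusted p = 0.0468), and its call was kept in only 2 of the 9 fits with a library left out, those without LHP tumor 2 or S7HP+Snail tumor 13 (limma adjusted p up to 0.125 in the others). Tbx2 was also not called with the 6 tumors alone, with library weights, without the filter or without trend or robust variances (up to 0.0864). Zeb2, a Snail-related repressor, was at 8.74, 8.25 and 8.77 against 9.92, 10.89 and 9.32 without passing (1.46 ± 0.36, limma adjusted p = 0.0766), and passed without tumor 15 (1.82, limma adjusted p = 0.0284). Prrx1 likewise was not called (1.87 ± 0.57) except without tumor 15 (2.60, limma adjusted p = 0.0141). Zeb1 differed by 0.34 ± 0.34, Twist1 by 3.03 ± 1.24 and Snai2 by -1.79 ± 0.67, and none of these was called.

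Most classical mesenchymal markers were not called. Of 34 tested, 2 were called higher and 1 lower, beside 1.01% and 1.29% of all genes. Their median difference was 0.31. The median was 0.73 without S7HP+Snail tumor 14, 0.14 without tumor 13 and 0.04 without tumor 15. Vimentin, Vim, the intermediate filament of mesenchymal cells, was at 11.41, 12.22 and 12.79 against 12.40, 11.68 and 12.63, so that the groups overlapped fully (0.10 ± 0.39). N-cadherin, Cdh2, differed by -0.76 ± 0.34 and fibronectin, Fn1, by 1.20 ± 0.42, both with overlap and neither called. The risers were Tgfb1i1, a focal adhesion protein also known as Hic-5, and the gelatinase Mmp9. Tgfb1i1 was at 4.91, 4.89 and 5.36 against 9.50, 7.95 and 8.89 (3.73 ± 0.60, limma adjusted p = 0.0178), and its call was lost without any 1 S7HP tumor (up to 0.0813). Mmp9 rose by 2.79 ± 0.60 (limma adjusted p = 0.0454), a call lost in 6 of 9 fits, those without LHP tumor 2, a single S7HP tumor, or either of S7HP+Snail tumors 14 and 15 (up to 0.152). The surface nucleotidase Nt5e fell by 2.52 ± 0.55 (limma adjusted p = 0.0456) and was called in 1 of the 9 fits, the one without LHP tumor 3 (up to 0.161 in the others). Both Mmp9 and Nt5e also lost the call with the 6 tumors alone, with library weights, without the filter and without trend or robust variances, and Nt5e with a pseudocount of 8 (up to 0.105).

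Matrix genes were called in the rising direction alone. Of 22 collagens tested, 2 were called higher and 0 lower, beside 1.01% higher among all genes. A positive difference was found in 21, and the median was 1.17. Without overlap, 10 lay above S7HP, beside 9.53% of all genes. Col16a1, a fibril-associated collagen, was at 8.02, 7.18 and 7.75 against 10.54, 10.92 and 10.23 (2.91 ± 0.35, limma adjusted p = 0.00517). Col7a1, which forms anchoring fibrils under epithelia, was at 3.97, 4.08 and 5.14 against 7.72, 6.66 and 7.77 (2.98 ± 0.41, limma adjusted p = 0.00802). Both were called whichever library was left out, and Col7a1 was not called with the 6 tumors alone in the model (limma adjusted p = 0.0560). In LHP tumors Col7a1 stood at 11.37, 11.64 and 11.77, above all Snail tumors. The main fibrillar collagen Col1a1 was at 10.40, 10.05 and 11.04 against 11.82, 10.81 and 10.65 and was not called (0.60 ± 0.34).

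Of 44 laminin and other matrix genes tested, 7 were called higher and 0 lower, beside 1.01% higher among all genes. Their median difference was 0.87. Serpinh1, the collagen chaperone HSP47 of the endoplasmic reticulum (GRCm38 chromosome 7, 99345376 to 99353239), was at 12.17, 12.50 and 13.42 in S7HP and at 15.18, 15.67 and 15.30 in S7HP+Snail tumors. It rose by 2.69 ± 0.35 (limma adjusted p = 0.00708), with the 3 Snail tumors close together. Tgfbi, a secreted matrix adaptor induced by TGF-β, was at 8.40, 7.36 and 8.44 against 10.58, 10.78 and 10.56 (2.57 ± 0.31, limma adjusted p = 0.00517). The laminin chain Lamb1 rose by 2.54 ± 0.36 and the large proteoglycan versican, Vcan, by 2.10 ± 0.32 (limma adjusted p = 0.00946 and 0.0140). Serpinh1 and Tgfbi kept their calls in every alternative, and Lamb1 and Vcan lost theirs without S7HP tumor 11 only (limma adjusted p = 0.0573 and 0.0633). The other 3 were Lama4 (2.54 ± 0.47), Nid2 (1.73 ± 0.36) and thrombospondin 1, Thbs1 (2.18 ± 0.46), whose limma adjusted p was 0.0279, 0.0409 and 0.0430. Lama4 lost its call in 6 of the 9 fits (up to 0.0831), namely when an LHP tumor, S7HP tumor 9, S7HP tumor 11 or S7HP+Snail tumor 13 was left out. Nid2 and Thbs1 lost theirs in 8 of the 9 (up to 0.143), all but those without S7HP+Snail tumor 13 and tumor 15 respectively. None of these 3 was called with the 6 tumors alone in the model.

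Single receptors and secreted factors rose by several log2 units. Nr2f1, the nuclear receptor COUP-TFI (GRCm38 chromosome 13, 78188973 to 78199757), was at 4.91, 4.50 and 4.50 in S7HP tumors and at 10, 9.41 and 11.25 in S7HP+Snail tumors, a difference of 5.58 ± 0.69 (limma adjusted p = 0.00578). Its relative Nr2f2, COUP-TFII, rose by 2.19 ± 0.38 (limma adjusted p = 0.0219), a call lost without any 1 S7HP tumor (up to 0.0887) and with the 6 tumors alone (0.0803). These were the 2 called, both higher, of 25 nuclear receptors tested, beside 1.01% higher among all genes. Igfbp5, which binds and carries insulin-like growth factors, was at 6.93, 4.50 and 6.46 against 10.50, 10.30 and 10.69 (4.54 ± 0.54, limma adjusted p = 0.00517). The IGF receptor Igf1r was at 5.73, 3.74 and 6.20 against 8.85, 7.55 and 8 (2.91 ± 0.60, limma adjusted p = 0.0409), and kept its call only without S7HP+Snail tumor 14 (up to 0.0870 in the other 8 fits). Igf1r also lost it with the 6 tumors alone, with library weights, without the filter and without trend or robust variances (up to 0.122). Of 13 insulin-like growth factor genes tested, these 2 were called higher and 0 lower, beside 1.01% higher among all genes.

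Wnt5a, Wls and Sulf2 rose. They are among 6 genes called higher, with 0 lower, of 24 Wnt pathway genes tested. That list, mostly of ligands, secretion genes and antagonists, was made after values were seen. Wnt5a, a ligand that mostly signals without β-catenin, was at 7.36, 8.08 and 8.24 in S7HP and at 10.76, 12.40 and 11.62 in S7HP+Snail tumors (3.70 ± 0.40, limma adjusted p = 0.00382). Wls, the carrier that brings Wnt proteins to the cell surface, was at 9.70, 10.98 and 10.86 against 13.44, 14.18 and 13.19 (3.09 ± 0.37, limma adjusted p = 0.00517). Sulf2, a sulfatase that edits heparan sulfate and so frees bound ligands, was at 7.79, 8.66 and 7.88 against 11.33, 10.73 and 11.69 (3.14 ± 0.37, limma adjusted p = 0.00517). In all 3 genes the lowest Snail tumor was more than 2 units above the highest S7HP tumor, and the calls were kept in every alternative.

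The lysophosphatidic acid system changed at its enzyme and at a pair of receptors. Enpp2, autotaxin, which makes lysophosphatidic acid outside cells, was at 11.03, 8.74 and 7.90 in S7HP and at 12.90, 14.85 and 15.22 in S7HP+Snail tumors (5.10 ± 0.84, limma adjusted p = 0.0197). Its spread was wide in both groups, and the call was lost without S7HP tumor 11 or 12 (limma adjusted p up to 0.0876) and with the 6 tumors alone in the model (0.0593). The receptor Lpar1 was at 7.44, 6.59 and 8.40 against 11.20, 11.19 and 9.99 (3.31 ± 0.47, limma adjusted p = 0.0102), and its call was kept in every alternative. The receptor Lpar2 fell by 1.73 ± 0.37 (limma adjusted p = 0.0441), called with a library left out only without S7HP+Snail tumor 15 (up to 0.136 in the others). It was also lost with the 6 tumors alone, without the filter and without trend or robust variances (up to 0.122). Enpp2 was at 7.83, 9.59 and 8.80 in LHP tumors, near the S7HP level, while Lpar1 was at 11.20, 11.84 and 11.41, near the Snail level.

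Among the remaining largest rises that held without each library, Nrep, first described in regenerating neurons, differed by 4.25 ± 0.55 and the carbohydrate sulfotransferase Chst2 by 4.05 ± 0.43. The lipid mediator hydrolase Pla2g7 differed by 3.29 ± 0.43, the reticulum protein Rcn3 by 3.30 ± 0.41, the reticulum peroxidase Gpx8 by 2.84 ± 0.31 and the cytochrome c oxidase subunit Cox6b2 by 2.93 ± 0.35. Limma adjusted p ran from 0.00382 to 0.00708 for these 6 genes. Each had its 3 Snail tumors above its 3 S7HP tumors.

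**Figure D4:**
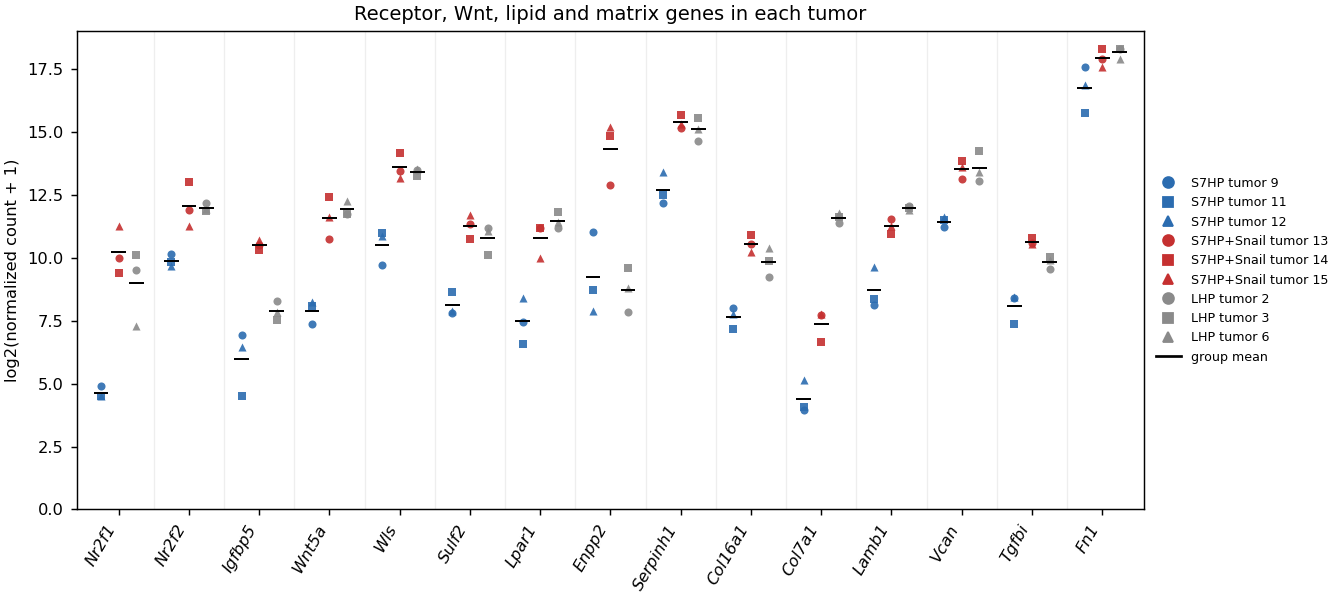
Log2(normalized count + 1) of receptor, Wnt, lysophosphatidic acid and matrix genes in each S7HP (blue), S7HP+Snail (red) and LHP (grey) tumor, with black bars for group means. For every gene except Fn1 the 3 red points lie above the 3 blue points.

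Fabp5, Apoc2, Cyp3a13, Chka and Abca3 fell, and are grouped here as genes that carry or metabolize lipids or drugs after their values were seen. Fabp5, a cytosolic fatty acid carrier (GRCm38 chromosome 3, 10012548 to 10016607), was at 14.00, 13.76 and 13.60 in S7HP and at 10.97, 10.33 and 10.60 in S7HP+Snail tumors. It had the smallest adjusted p of all genes, with a difference of -3.16 ± 0.22 (limma adjusted p = 0.000908). Apoc2, the cofactor that activates lipoprotein lipase, was at 15.34, 14.55 and 14.79 against 12.27, 12.32 and 12.30, so that the Snail tumors differed from each other by very little (-2.60 ± 0.24, limma adjusted p = 0.00277). The readthrough entry Apoc4-apoc2 fell by 2.66 ± 0.28 and overlaps Apoc2, so the reads of the 2 entries may not be separable. Cyp3a13, a steroid and drug metabolizing P450, was at 12.36, 11.17 and 12.42 against 9.78, 9.21 and 8.48 (-2.82 ± 0.40, limma adjusted p = 0.00946). Chka, the first enzyme of phosphatidylcholine synthesis from choline, fell by 1.45 ± 0.19 and the lipid transporter Abca3 by 2.48 ± 0.32 (limma adjusted p = 0.00770 and 0.00619). All 5 were called whichever library was left out.

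Other falls that held without each library were those of Bex4 (-5.45 ± 0.66), the tuftelin gene Tuft1 (-3.33 ± 0.41), the ectonucleotidase family member Enpp5 (-3.19 ± 0.42), the recycling endosome GTPase Rab4a (-2.52 ± 0.31) and the nucleoside diphosphate kinase Nme3 (-2.11 ± 0.31). The myristoyltransferase Nmt2 (-2.09 ± 0.21), the cargo receptor Tmed4 (-1.95 ± 0.23) and the proteasome shuttle Ubqln2 (-1.79 ± 0.26) completed them. Limma adjusted p ran from 0.00382 to 0.0106 for these 8 genes. Nmt2 was at 11.80, 12.05 and 12.14 in S7HP and at 10.13, 9.84 and 9.76 in S7HP+Snail tumors, and LHP tumors had 12.39, 12.01 and 12.09.

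Hepatocyte genes were lower in most cases without passing one by one. Of 39 tested, 1 was called lower and 0 higher, beside 1.29% lower among all genes. A negative difference was found in 34, and the median was -0.91. Without overlap, 12 lay below S7HP, beside 11.0% of all genes. The call was Foxa3, a liver pioneer transcription factor, at 11.80, 11.02 and 11.25 against 9.99, 10.30 and 9.65 (-1.38 ± 0.28, limma adjusted p = 0.0404), kept with a library left out only without S7HP+Snail tumor 14 (up to 0.109 in the others). With the 6 tumors alone, with library weights, without the filter or without trend or robust variances Foxa3 was not called (up to 0.0945). The hepatocyte regulator Hnf4a was at 10.19, 9.91 and 9.61 against 9.17, 8.47 and 8.45 and was not called (-1.20 ± 0.34, limma adjusted p = 0.103). Albumin, Alb, differed by -0.23 ± 0.52. The fetal protein gene Afp was at 16.32, 14.14 and 14.65 against 12.39, 15.41 and 11.00, with tumor 14 among the S7HP values. Afp was not called (-2.11 ± 0.96) and was called without tumor 14 (-3.35, limma adjusted p = 0.0266). The summed level of the hepatocyte list was 670224 to 1437303 normalized counts in S7HP and 486959 to 761702 in S7HP+Snail tumors. In bulk tissue, fewer cells of a type and less RNA per cell cannot be told apart.

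In intermediary metabolism, 2 of 25 fatty acid genes were called lower and 0 higher. Of 24 urea and amino acid genes, 1 was called lower and 0 higher. Among all genes 1.29% were called lower, and counts this small carry little weight beside that share. Dgat2, which makes triglyceride, was at 10.38, 10.22 and 10.79 against 8.24, 9.04 and 8.49 (-1.87 ± 0.30, limma adjusted p = 0.0178), a call lost without any 1 S7HP tumor (up to 0.0728). Acadm, of medium-chain fatty acid oxidation, fell by 1.11 ± 0.24 (limma adjusted p = 0.0482) and lost the call without any 1 of the 9 libraries (up to 0.122), and likewise with the 6 tumors alone, with library weights, without the filter and without trend or robust variances (up to 0.128). Gldc, the glycine cleavage enzyme, fell by 1.99 ± 0.40 (limma adjusted p = 0.0354), a call that ended when LHP tumor 3, a single S7HP tumor or S7HP+Snail tumor 13 was left out (up to 0.108), with library weights (0.0515) and without trend or robust variances (0.0544). Of 25 glycolysis and hypoxia genes limma called 0 in either direction and 9 were lower at an unadjusted p under 0.05, with 24 below 0 and a median of -1.03. Without S7HP+Snail tumor 14 that median was -0.50, and the mean level of the list was 9.09 in tumor 14 against 10.68 and 11.12 in tumors 13 and 15. Of 22 cholesterol genes limma also called 0, with 10 lower at an unadjusted p under 0.05 and a median of -0.68. At that unadjusted level 1321 of all 14215 genes were lower.

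Of 22 trefoil, cornified and mucosal genes tested, 4 were called lower and 0 higher, beside 1.29% lower among all genes. A positive difference was found in 10 of the 22. Tff1, a trefoil peptide of mucus, was at 14.53, 13.01 and 14.36 in S7HP and at 11.40, 6.26 and 8.70 in S7HP+Snail tumors (-5.17 ± 1.08, limma adjusted p = 0.0425). The chloride channel protein Clic6 was at 10.38, 11.44 and 11.31 against 7.86, 6.17 and 4.86 (-4.74 ± 0.70, limma adjusted p = 0.0114). The cornified envelope protein Sprr1a was at 13.18, 14.95 and 14.26 against 10.35, 8.72 and 10.30 (-4.34 ± 0.74, limma adjusted p = 0.0219). The glutathione transferase Gsta1, whose near-identical copies may share its reads, fell by 2.69 ± 0.44 (limma adjusted p = 0.0178). Clic6, Sprr1a and Gsta1 lost their calls without S7HP tumor 11 or 12 (limma adjusted p up to 0.0887). Tff1 lost its call in 7 of the 9 fits, all but those without S7HP+Snail tumor 13 or 14 (up to 0.130). The median of the list was -0.57, but 0.89 without tumor 14. Of 19 fetal liver and oncofetal genes, Nrep rose, and Bex1 fell by 5.14 ± 1.12 (limma adjusted p = 0.0478). Among all genes 1.01% were called higher and 1.29% lower. Bex1 was called with a library left out only without LHP tumor 2 or S7HP+Snail tumor 14 (up to 0.170 in the others). Tff1 and Bex1 were also not called with the 6 tumors alone, with library weights, without the filter or without trend or robust variances (up to 0.113).

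Among TGF-β and Smad target genes, 3 of 28 tested were called higher (Tgfbi, Tgfb1i1 and Thbs1) and 0 lower, beside 1.01% higher among all genes. Their median was 0.29, and 0.11 without S7HP+Snail tumor 15. Differences were positive in 17 of these target genes and negative in 11. At an unadjusted limma p under 0.05, 8 were higher and 3 lower. Without overlap, 6 lay above S7HP and 2 below, beside 9.53% and 11.0% of all genes. Of 21 ligands, receptors and Smads tested, limma called 0 in either direction, with 4 higher and 0 lower at an unadjusted p under 0.05. Of these 21, 7 lay above S7HP without overlap, beside 9.53% of all genes, and 0 below. The receptor Tgfbr1 differed by -0.40 ± 0.29. Of 29 corepressors and stability factors of Snail, 1 was called lower, beside 1.29% lower among all genes. It was the LIM protein Limd1, at 10.91, 11.18 and 11.11 against 9.93, 9.53 and 9.72 (-1.34 ± 0.20, limma adjusted p = 0.0117). That call was lost without S7HP tumor 11 or 12 (up to 0.0633).

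Among RAS-ERK genes, 1 of 20 was called higher and 1 lower, beside 1.01% higher and 1.29% lower among all genes. Tgfa, a ligand of the EGF receptor, was at 7.24, 6.75 and 7.60 against 2.35, 3.94 and 4.39 (-3.63 ± 0.70, limma adjusted p = 0.0312), a call that ended when LHP tumor 2, a single S7HP tumor or S7HP+Snail tumor 13 was left out (up to 0.107) and with the 6 tumors alone (0.0547). The ERK pathway inhibitor Spred1 rose by 1.01 ± 0.21 (limma adjusted p = 0.0411), called with a library left out only without S7HP+Snail tumor 13 (up to 0.135 in the others). Spred1 was also not called with the 6 tumors alone, with library weights, without the filter or without trend or robust variances (up to 0.116). The proliferation marker Mki67 differed by 0.17 ± 0.39, and of 30 cell cycle genes limma called 0, with 0 higher and 1 lower at an unadjusted p under 0.05. Of 23 cyclin D, CDK inhibitor and p53 target genes it called 0, with 2 higher and 3 lower at an unadjusted p under 0.05. Of 25 interferon response genes it called 0, with 3 higher and 1 lower at that level.

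Markers of other cells moved with the comparison in part. Of 21 endothelial markers 1 was called higher and 0 lower, beside 1.01% higher among all genes. A positive difference was found in 17, and the median was 1.28 (0.80 without tumor 14). At an unadjusted p under 0.05, 11 of the 21 were higher and 0 lower, and 9 lay above S7HP without overlap, beside 9.53% of all genes. At that unadjusted level 1212 of all 14215 genes were higher and 1321 lower. The call was Plvap, a diaphragm protein of capillary endothelium, at 8.36, 7.88 and 8 against 10.05, 9.46 and 9.08 (1.45 ± 0.30, limma adjusted p = 0.0382), kept with a library left out only without S7HP+Snail tumor 15 (up to 0.130 in the others), and lost with the 6 tumors alone or without trend or robust variances (up to 0.101). The summed endothelial level was 5117 to 9200 normalized counts in S7HP and 6788 to 11201 in S7HP+Snail tumors. Stellate cell and fibroblast markers summed to 8042 to 12606 and 16332 to 24039, which did not overlap, with 13 of 19 members positive, 0 called by limma and 4 higher at an unadjusted p under 0.05. Such sums follow the most abundant members. The list's mean log2 level did overlap, at 7.67, 6.81 and 7.35 in S7HP and 8.26, 8.09 and 7.54 in S7HP+Snail tumors. Of the 19 genes, 2 lay above S7HP without overlap, beside 9.53% of all genes. Their defining markers Pdgfrb and Des differed by 0.61 ± 0.46 and 1.1 ± 0.42, and the contractile gene Acta2 by 0.83 ± 0.51, none of them called. Macrophage markers summed to 7969 to 10501 and 11132 to 19126, with 18 of 20 positive and 0 called by limma (2 higher at an unadjusted p under 0.05), and Adgre1 differed by 0.56 ± 0.48. The mean log2 level of the macrophage list overlapped (8.16 in S7HP tumor 9, 8.14 in S7HP+Snail tumor 13). Of these 20 genes, 1 lay above S7HP without overlap. None of the defining markers Pecam1, Cdh5, Pdgfrb, Des, Adgre1, Csf1r and Ptprc was at 0 in any of the 6 tumors. In the lists for neutrophils (8 genes tested), lymphocytes (12), erythroid cells (7), cholangiocytes (8), biliary and progenitor cells (17) and stress genes (18) limma called 0 in either direction. At an unadjusted p under 0.05 these 6 lists held 0 higher genes, and 0, 0, 0, 1, 4 and 3 lower ones. The part of these cells in the rises of matrix, receptor and Wnt genes was not tested.

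The 3 Snail tumors lay far apart for a set of genes, mostly through tumor 14. Over 9299 genes with a mean log2 level of at least 7 in the 6 tumors, the median range among the 3 tumors was 0.72 in S7HP+Snail and 0.65 in S7HP. In the 100 genes with the widest range among Snail tumors (at least 4.37), tumor 14 was the lowest in 74 and the highest in 20, and the median S7HP range was 1.53. The genes in this paragraph without a role in the lists were chosen after their values were seen. The epithelial adhesion gene Epcam was at 12.96, 4.2 and 8.19 in tumors 13, 14 and 15 and between 7.72 and 9.09 in S7HP tumors, and Krt19, a biliary keratin, was at 12.53, 4.35 and 11.29, against 10.78, 11.75 and 11.52. Tumor 13 was thus above, and tumor 14 below, every S7HP tumor for both genes. The claudin Cldn7 was at 11.69, 2.26 and 6.11, and the transmembrane mucin Muc13 at 12.86, 5.76 and 10.34.

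The mucosal genes Reg3b and Dmbt1, an antimicrobial lectin and a scavenger glycoprotein, were at 13.51 and 13.92 in tumor 13 and at 13.20 and 12.72 in tumor 15, but at 1.53 and 2.92 in tumor 14. Reg3b stood between 3.53 and 6.01 in S7HP tumors. Agr2, a disulfide isomerase of mucus-secreting cells, was at 10.89, 1.22 and 13.04 in tumors 13, 14 and 15. In the opposite direction the transcription cofactor Lmo2 was at 15.07 in tumor 14 against 8.64 and 8.71 in tumors 13 and 15, and the ephrin receptor Epha7 at 12.23 against 6.25 and 7.10. Leaving out tumor 14 gave 152 genes called higher and 158 lower, beside 143 and 184 with it, of which 90 and 124 were the same genes.

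**Figure D5:**
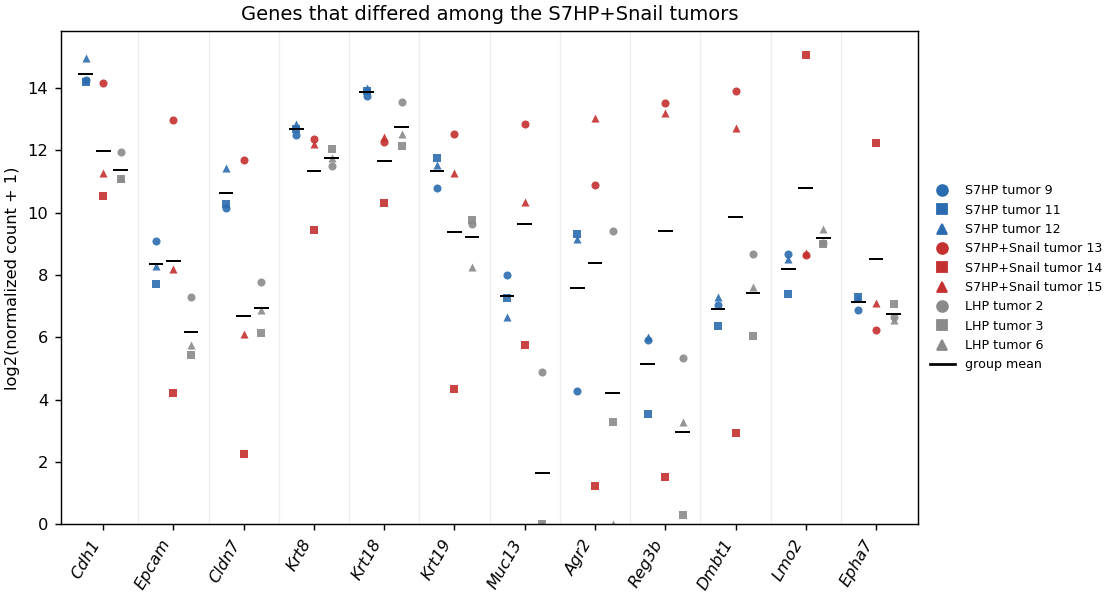
Log2(normalized count + 1) of genes that varied among the S7HP+Snail tumors (red circles tumor 13, red squares tumor 14, red triangles tumor 15), beside the S7HP (blue) and LHP (grey) tumors, with black bars for group means. Red squares lie lowest from Cdh1 to Dmbt1 and highest for Lmo2 and Epha7.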

How the data were processed

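Total RNA extracted with Trizol went into QuantSeq libraries, which read transcripts near their 3′ end, per the labels' protocols. Bowtie2, edgeR and mm10 are named, without version or role, per the submitters' processing notes. How reads were counted, and on which annotation, is not given in the sources used here. The authors deposited log2(quantile-normalized count + 1) values, as the values themselves show: all 9 libraries share their highest value, and totals run from 19910396 to 19911234. Quantile normalization forces one distribution on all libraries, so a change in total RNA cannot be seen and each library's total count is not preserved. The log2 value of 3 reads, estimated from the steps between the lowest values, was 1.22 to 2.64.

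All 9 libraries were fitted in limma 3.58.1 (R 4.3.3; lmFit, eBayes with trend and robust variances, 6 residual degrees of freedom, two-sided) over the 14215 genes at 4 or more in at least 3 libraries. On simulated data for S7HP+Snail against S7HP over 14215 genes, log2 changes of 1, 2, 3 and 5 were called in 4%, 58%, 82% and 88% of genes, with 9 calls among 14015 unchanged genes. Gene lists (36, with 785 of 789 entries matched to symbols) are described by counts. The members and lists were chosen with earlier results of these data known. Besides Snai1, Smad7, Hras and Trp53, the genes named are 38 fixed genes, of which Tgfb1 and Esrp1 were below the filter, from each list up to 4 called members (lowest adjusted p), and the 15 rises and 15 falls of largest size. The last had to be called with each library left out, have no overlap, a mean of at least 7 and no predicted-gene name. A few genes are not reported here. Other genes are named as members of short counts or after their values were seen. Alternatives were no filter, a filter at 6, median scaling, a pseudocount of 8, eBayes without trend or robust variances, library weights, the 6 tumors alone, and each library left out. Coordinates are from GENCODE M21 on GRCm38, which mm10 names, and promoters from RefSeq (GRCm38.p6), with a window for 10698 tested genes. Figures were drawn with matplotlib 3.10.9.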

Additional observations from a re-analysis of the deposited data

How the results depend on the processing

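Against 143 genes called higher and 184 lower, the 6 tumors alone gave 50 and 70. The other 6 settings gave 110 to 143 higher and 136 to 206 lower. Leaving out each library gave 36 to 214 higher and 27 to 237 lower. Snai1 differed by 1.41 to 2.02 with a library left out and passed only without S7HP+Snail tumor 14, at 2.02. The share of genes called lower with the promoter motif was 45.1%. It was 10.7% for the longer motif ACAGGTG, beside 4.4% of genes not called, and 58.3% in genes called in all 9 fits, a setting added after seeing the data. Of 64 named genes that were called, 31 kept the call in every alternative, 32 lost it without some library and 24 in another setting, and 0 reversed. Of 32 not called, 6 were called in some alternative. No paired analysis was possible because the groups share no tumor numbers. Low genes are limited by depth, with 3 reads worth up to 2.64.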

Other observations

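Of 22 neuropeptide and neuronal genes tested, a list made after values were seen, 10 were called lower, 1 higher and 11 not by limma, beside 1.29% lower among all genes. The median difference was -2.81. Because the members were picked with their values known, these counts cannot be weighed against the share over all genes. Pyy, Gal, Vgf and Mt3 also reached the filter only through the S7HP tumors, where they were high. Neuropeptide Y, Npy, was at 7.14, 7.62 and 8.55 in S7HP tumors 9, 11 and 12 and at 2.81, 2.44 and 2.35 in S7HP+Snail tumors 13, 14 and 15. Peptide YY, Pyy, was at 7.45, 7.97 and 7.30 against 1.83, 1.53 and 3.50, and the granin-like precursor Vgf at 7.29, 6.61 and 6.79 against 2.64, 0.00 and 1.96. The Snail tumors were near the level of a few reads for all 3 genes. The others called lower were Gal, Nefm, Sox11, Kif5c, Bex1, Bex4 and Mt3. The gene called higher was Elavl4, a neuronal RNA binding protein, listed at 0 in the 3 S7HP tumors and at 6.12, 4.97 and 4.61 in the Snail tumors.

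Genes of collagen folding and processing, a list also made after values were seen, rose in 9 of 23 tested and fell in 0, with a median difference of 0.77. Beside Serpinh1, Rcn3 and Gpx8 they were the prolyl isomerase Fkbp10 (1.93 ± 0.25), the anchor protein Ckap4 (2.29 ± 0.32), Pcolce, Rcn1, Gpx7 and the secretory pathway transcription factor Creb3l1. In another such list 6 of 24 Wnt pathway genes rose and 0 fell. The 3 not described above, Wnt6, Dkk2 and Sp5, were at most at 3.43 in S7HP and at least at 4.51 in Snail tumors. Wnt6 reached the filter only through the Snail tumors, where it was high. Of all genes 1.01% were called higher, but members of both lists were picked with values known, so their counts cannot be weighed against it. Col9a1, a collagen of cartilage, was listed at 0 in all S7HP and LHP tumors and at 7.79, 8.65 and 6.21 in the Snail tumors. Col9a1 thus met the filter only through the Snail tumors, so its separation from the other tumors follows from how it was admitted. Foxl2, a transcription factor of the ovary, was listed at 0 in the S7HP tumors and at 6.70, 5.74 and 7.72, and its antisense partner Foxl2os, whose reads may not be separable, at 6.04, 6.19 and 6.66. Foxl2 could not meet the filter through the S7HP tumors, so its separation from them may follow from how it was admitted. The same limit may hold for Foxl2os.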
